A study of Mus musculus with 4 samples.

Results

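Genes that start and restrain blood clotting and genes that turn plasminogen into plasmin were followed in RAW264 cells, a macrophage-like line from a BALB/c mouse. The members were chosen by name. They were the 9 genes Procr, Thbd, F3, F7, F10, Plaur, Plau, Plat and Serpinb2, carried by 11 of 56605 probes, out of 24842 named genes on the arrays. They were picked with results of these data known, and each gene was read from its brightest probe, so the values below are descriptions. The cells received siRNA against Tfe3 and Tfeb, which code for related transcription factors of lysosome and autophagy genes, or siRNA against green fluorescent protein (GFP) as the control. From 48 hours after transfection they were kept for 24 hours with 500 µM ferric chloride or without it. The groups were siTfe3/Tfeb with iron, siTfe3/Tfeb without iron, siGFP with iron and siGFP without iron, with 1 array each. All groups shared the line and the transfection. With 1 array per group there was no replicate check, and no test, SE or p-value was computed between groups.

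In clotting, tissue factor (F3) at the cell surface binds factor VII (F7), and the pair activates factor X (F10), which leads to thrombin and fibrin. Thrombomodulin (Thbd) and the endothelial protein C receptor (Procr) turn this off by promoting the activation of protein C. In the plasminogen system, urokinase (Plau) bound to its receptor (Plaur) makes plasmin at the cell surface, tissue-type activator (Plat) makes it on fibrin, and Serpinb2 inhibits both activators. Monocytes and macrophages are known sources of tissue factor, urokinase and its receptor.

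Macrophage markers were bright, and many listed markers of other cell types were below background. All 12 macrophage markers were well above background on all 4 arrays, and so were 2 of 9 endothelial, 2 of 8 platelet, 0 of 7 hepatocyte, 1 of 7 fibroblast and 1 of 6 epithelial markers. Platelet markers well above background numbered 4 with iron and 2 without in siGFP cells, and 2 and 3 in siTfe3/Tfeb cells. Endothelial markers numbered 3 and 2 in siGFP cells, and 2 on each siTfe3/Tfeb array. Genes well above background numbered between 14336 and 14904 per array, and 13859 on all 4. Relative to siGFP, the siTfe3/Tfeb arrays held 68.4% of the Tfe3 signal in iron-treated cells and 60.6% in untreated cells, whereas Tfeb was at 112% and 91.0%. The Tfeb signal thus did not bear out its knockdown label, and siTfe3/Tfeb below means the arrays labelled so. Slc40a1, the iron exporter, was 23.2-fold higher with iron in siTfe3/Tfeb cells and 19.0-fold higher in siGFP cells. In bulk RNA, fewer cells of a type and less RNA per cell cannot be told apart.

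The stretches before the starts of some members are shown, and their part in the iron differences was not tested. RefSeq (GRCm38.p6) promoters were held for 6 of the 9 members, and not for Thbd, Plau and Plat. Each line gives the 250 bases before the annotated start, 5′ to 3′ on the plus strand, and capitals mark matches to the AP-1 motif TGANTCA, which is bound by Fos and Jun proteins. F10 is shown as an iron-higher gene with no such match. The stretches lie at chr2:155750967-155751216 (Procr), chr7:24462233-24462482 (Plaur), chr3:121723287-121723536 (F3) and chr8:13037058-13037307 (F10).
Procr: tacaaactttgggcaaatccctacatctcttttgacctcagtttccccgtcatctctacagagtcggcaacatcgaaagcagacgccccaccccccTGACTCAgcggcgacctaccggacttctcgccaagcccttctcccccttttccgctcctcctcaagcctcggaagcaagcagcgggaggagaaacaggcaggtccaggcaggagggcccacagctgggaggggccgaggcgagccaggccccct
Plaur: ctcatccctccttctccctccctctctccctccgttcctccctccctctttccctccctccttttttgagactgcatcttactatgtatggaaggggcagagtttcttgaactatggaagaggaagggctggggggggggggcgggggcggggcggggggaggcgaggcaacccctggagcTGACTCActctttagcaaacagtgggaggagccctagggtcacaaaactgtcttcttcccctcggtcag
F3: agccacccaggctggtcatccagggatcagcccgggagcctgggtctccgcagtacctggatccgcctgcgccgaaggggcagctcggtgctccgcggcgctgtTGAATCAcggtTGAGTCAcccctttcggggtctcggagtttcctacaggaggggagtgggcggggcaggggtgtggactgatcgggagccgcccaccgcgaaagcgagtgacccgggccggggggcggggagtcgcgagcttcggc
F10: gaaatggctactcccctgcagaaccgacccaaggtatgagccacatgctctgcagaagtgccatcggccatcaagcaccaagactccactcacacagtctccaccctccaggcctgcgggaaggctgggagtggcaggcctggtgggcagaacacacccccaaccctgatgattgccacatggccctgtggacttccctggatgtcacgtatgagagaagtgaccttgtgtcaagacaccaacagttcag

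The AP-1 letters stood once before Procr, at -154 to -148 from the start, once before Plaur, at -69 to -63, and at 2 places before F3, at -146 to -140 and -135 to -129. Serpinb2, which was below background, held them too, at -94 to -88 from the first of its 2 annotated starts, so 4 of the 6 promoters had a match. On either strand, 6.75% of 32851 mouse promoter windows of 250 bases did. In Procr the match overlapped one to the antioxidant response element TGACNNNGC, found in 10.2% of windows and in no other member. The MiT/TFE E-box CACGTG was in 6.02% of windows and in none of the 6 promoters. The F7 window (chr8:13025784-13026033) lies inside the annotated F7 gene (chr8:13025506-13035809), so the bases before that gene were not searched. GC boxes (GGGCGG, 32.7% of windows) stood before F3 and Plaur, and a TATA box (TATAAA, 12.4%) before Serpinb2. These are matches of letters in a window and say nothing of binding or of the iron differences.

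**Figure D1:**
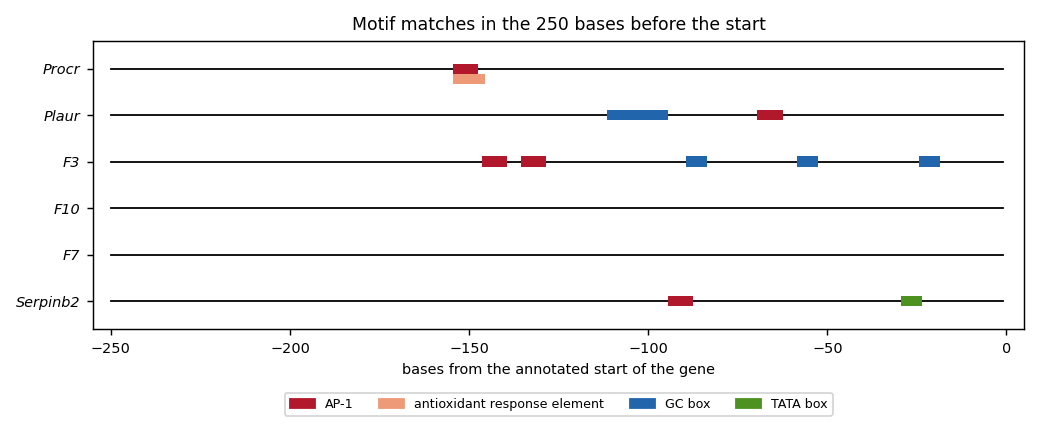
Positions of motif matches (coloured boxes) in the 250 bases before the annotated start of 6 members, in bases from the start; AP-1 and antioxidant response element matches overlap before Procr. Procr, Plaur, F3 and Serpinb2 hold AP-1 letters, and the F10 and F7 windows hold none of the motifs searched. The F7 window lies inside the annotated F7 gene and not before it.

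Iron went with higher signal of Procr, F3, F10, Plaur and Plau in both siRNA groups. Procr, the anticoagulant receptor, differed most, and the urokinase gene Plau and its receptor gene Plaur were each more than 3-fold higher. In siTfe3/Tfeb cells 5 of the 6 members with a value or bound were at least 2-fold higher with iron, where 1.79% of 15038 genes were, and 0 were 2-fold lower (0.698% of genes). In siGFP cells it was again 5 of 6 (1.54% of 15117 genes higher) and 0 lower (0.351%). These shares stand beside the background only as a description, since the members were chosen with it known. The 3 members without a value, Thbd, Plat and Serpinb2, were below background on every array.

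**Figure D2:**
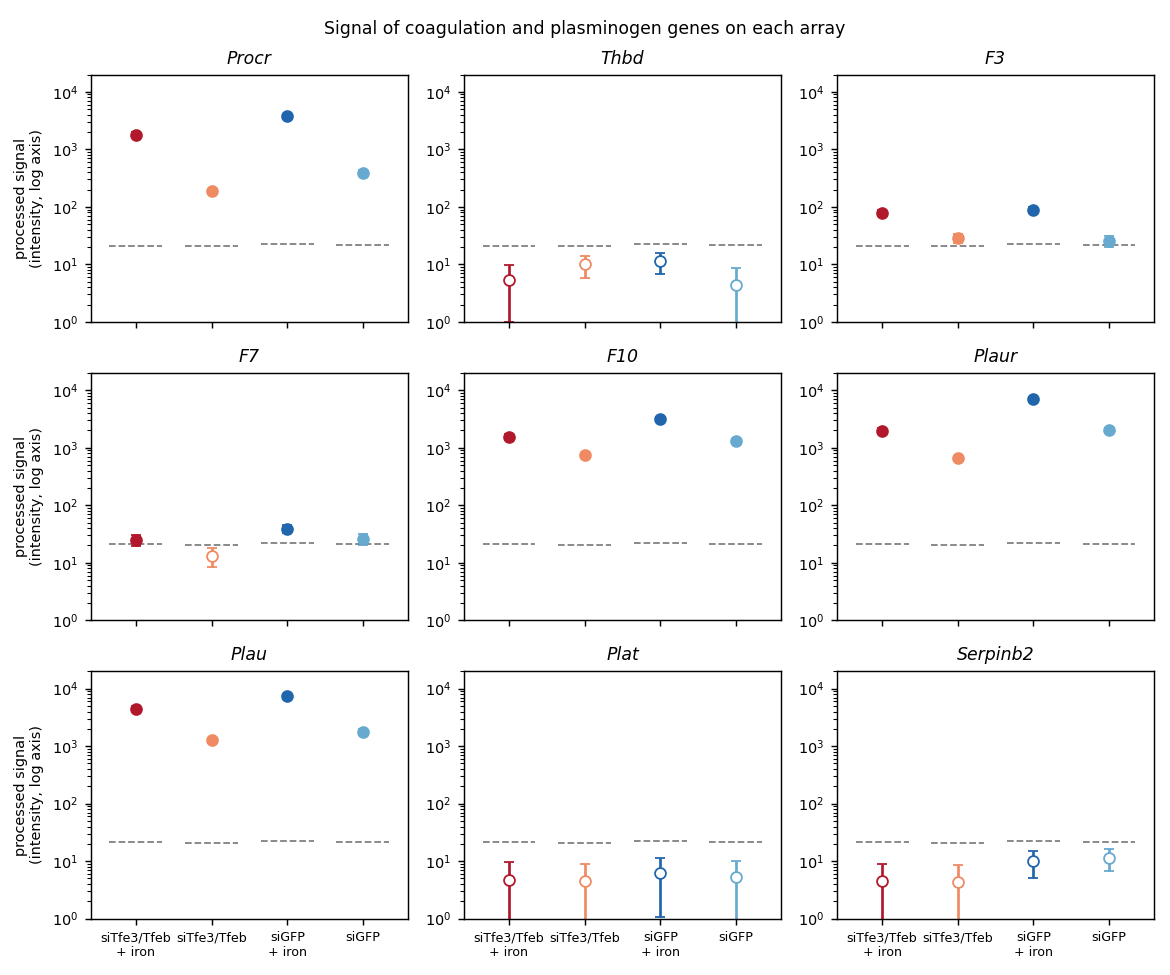
Processed signal (intensity, log axis) of the brightest probe of each of the 9 members on the 4 arrays; bars are the scanner software's error of the spot, cut where they would reach below the axis, filled points are well above background, open points are not, and dashes mark the lowest signal well above background on each array. Procr, F10, Plaur and Plau lie far above the dashes on every array, F3 and F7 near them, and Thbd, Plat and Serpinb2 below.

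Signals are processed intensities, given with the scanner software's own error for the spot, and folds are taken after scaling each array to the 75th percentile of its signal. For bright spots that error was a near-constant share of the signal, and it does not measure the spread between repeated spots. The spread between repeated spots of 1 probe on an array gave a further measure, an SD of a log2 difference of 0.0629 for bright probes (1074 combinations of probe and array) and 0.569 for those below -4 on the scaled log2 scale (76 combinations). Neither covers variation between cultures.

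Procr was measured at chr2:155580945-155581004 (array design coordinates on mm9, as for all probes below; the part of the transcript each probe reads was not analysed here). Its signal was 1800.1 ± 180 in siTfe3/Tfeb cells with iron, against 185 ± 19.0 without iron. In siGFP cells it was 3743 ± 374 with iron and 396 ± 39.9 without. Both iron arrays lay above both arrays without iron. The scaled folds were 10.4 in siTfe3/Tfeb cells (log2 difference 3.38, error 0.21) and 9.34 in siGFP cells (3.22, error 0.20). Ranked with every gene detected on the 2 arrays compared, Procr stood in place 4 of 14120 from the highest difference in siTfe3/Tfeb cells and in place 3 of 14274 in siGFP cells.

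Procr is best known from endothelium, and endothelial markers were read beside it. Pecam1 and Vwf were well above background on all 4 arrays, and Cdh5, Tek, Tie1, Esam, Emcn and Cldn5 were below background on all 4. The summed signal of the 9 endothelial markers was 216 with iron and 232 without in siTfe3/Tfeb cells, and 368 with iron and 202 without in siGFP cells. Sums and signals in this paragraph are not scaled between arrays. The 75th percentile was 593 with iron and 636 without in siTfe3/Tfeb cells, and 627 and 619 in siGFP cells. Within these sums Vwf read 119 with iron and 115 without in siTfe3/Tfeb cells. In siGFP cells Vwf read 227 with iron and 81.9 without. The part of endothelial RNA in the Procr difference was not tested. Of the platelet markers, Pf4 and Treml1 were well above background on all 4 arrays, and Itga2b, Gp9, Gp1ba and Gp1bb were below it throughout. The sum of the 8 platelet markers was 994 with iron and 790.0 without in siTfe3/Tfeb cells, and 2224 with iron and 1089 without in siGFP cells. Its part in the iron differences was not tested.

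The urokinase gene Plau (chr14:21662487-21662546) read 4454 ± 445 in siTfe3/Tfeb cells with iron and 1267 ± 127 without. It read 7353 ± 735 in siGFP cells with iron and 1769 ± 177 without. The folds were 3.77 in siTfe3/Tfeb and 4.11 in siGFP cells (log2 1.92 and 2.04, error 0.20 each), and within each siRNA group the iron array was the higher. A dimmer second probe, whose coordinates span 367 bases (chr14:21659855-21660221), gave folds of 4.93 in siTfe3/Tfeb and 4.03 in siGFP cells.

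Plaur, the urokinase receptor (chr7:25260569-25260628), read 1969 ± 197 in siTfe3/Tfeb cells with iron and 651 ± 65.3 without, and 6953 ± 695 in siGFP cells with iron and 2031 ± 203 without. Within each siRNA group the iron array was the higher one, by 3.24-fold in siTfe3/Tfeb cells and 3.38-fold in siGFP cells (log2 1.70 and 1.76). Across groups the levels overlapped. The signal of siTfe3/Tfeb cells with iron was that of siGFP cells without iron, with a scaled ratio of 1.01 (log2 0.02, error 0.20).

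Of the clotting initiators, F10 was bright and F3 and F7 were dim. F10 (chr8:13055774-13055833), the zymogen of the protease that forms thrombin, read 1565 ± 157 in siTfe3/Tfeb cells with iron and 738 ± 73.9 without. In siGFP cells it read 3119.6 ± 312 with iron and 1295 ± 130 without. It was 2.28-fold higher with iron in siTfe3/Tfeb cells and 2.38-fold higher in siGFP cells (log2 1.19 and 1.25).

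F3, the tissue factor gene (chr3:121437717-121437776), read 79.0 ± 9.21 in siTfe3/Tfeb cells with iron and 28.9 ± 5.38 without. In siGFP cells it read 88.8 ± 10.2 with iron and 25.9 ± 5.58 without. The lowest signals well above background were 20.5 to 22.3, so the arrays without iron held F3 just inside that limit. The folds were 2.94 in siTfe3/Tfeb cells (log2 1.56, error 0.32) and 3.39 in siGFP cells (log2 1.76, error 0.35). With normexp background correction the log2 differences were 0.71 in siTfe3/Tfeb and 0.68 in siGFP cells, below 2-fold, and with quantile normalization added they were 0.66 and 0.70. That correction adds an offset of 50 to every intensity, which by itself shrinks differences between dim signals, here and wherever it is named below. It cannot decide whether such a dim difference is sound.

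F7, the factor VII gene (chr8:13035287-13035346), was the neighbour of F10, with 1498 bases between the annotated genes (GRCm38.p6), and stayed near background. In siTfe3/Tfeb cells it read 24.6 ± 5.29 with iron and 13.2 ± 4.68 without, where the last value was not well above background. The difference is thus only a bound of at least 1.29-fold (log2 0.37), which is smaller than its error of 0.6. In siGFP cells it read 39.1 ± 6.37 with iron and 25.6 ± 5.49 without, a log2 difference of 0.59 with an error of 0.39, which normexp background correction took to 0.17. The hepatocyte markers Alb, Apoa1, Ttr, Ahsg, Fgb and Cyp3a11 were below background on all 4 arrays. The other hepatocyte marker, Serpina1a, was well above background on every array but that of siTfe3/Tfeb cells with iron.

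The other modulators could not be compared between arrays. Thbd (chr2:148230235-148230294) read from 4.36 to 11.4 over the arrays, the brighter Plat probe (chr8:23892531-23892590) from 4.53 to 6.23 and Serpinb2 (chr1:109421496-109421555) from 4.30 to 11.5, all not well above background. A second Plat probe (chr8:23886301-23886360) was also below. Low transcript levels of these genes were not measurable here.

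**Figure D3:**
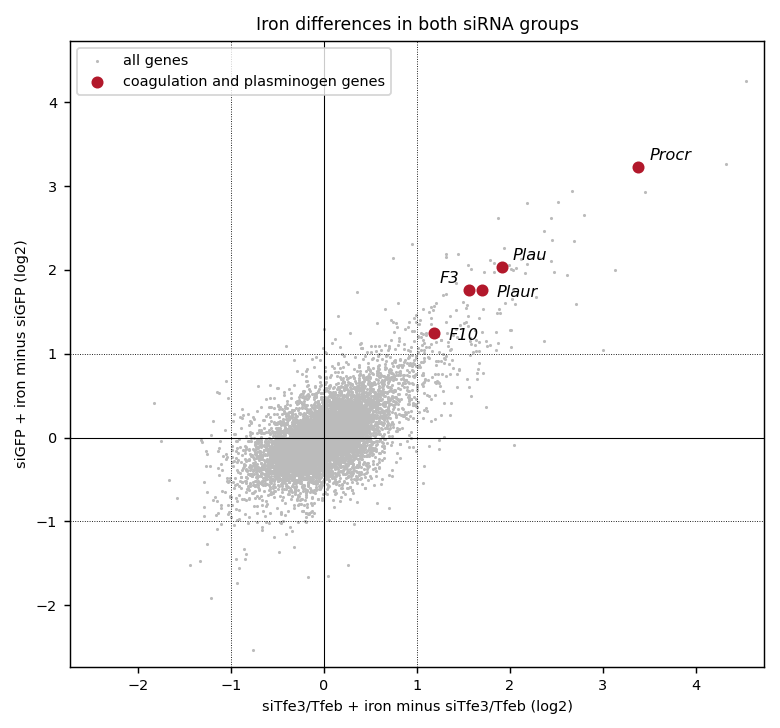
Log2 difference with iron in siTfe3/Tfeb cells (x axis) and in siGFP cells (y axis) for the 13859 genes detected above background throughout (grey), with the 5 members among them in red; dotted lines mark 2-fold. All 5 lie in the upper right, Procr at 3.38 and 3.22 and F10 closest to the lines at 1.19 and 1.25.

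The iron differences of the 5 members were of like size in both siRNA groups, which share no array in this comparison. The difference of iron responses, siTfe3/Tfeb minus siGFP, was 0.16 for Procr (error 0.29), -0.06 for Plaur (0.29), -0.12 for Plau (0.29), -0.06 for F10 (0.29) and -0.20 for F3 (0.47). Each was smaller than the software's error, which does not measure the spread between repeated spots. The median absolute value over 13859 genes was 0.14, and 0.628% of genes differed 2-fold. Of those genes, 130 were at least 2-fold higher with iron in both groups, among them these 5.

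On the arrays labelled siTfe3/Tfeb, Plaur and Procr were lower, F10 and Plau less so, and F3 was close to the siGFP level. Plaur was at 30.0% of the siGFP level with iron (3.34-fold lower, log2 -1.74, error 0.20) and at 31.2% without iron (3.20-fold lower, log2 -1.68). From the lowest difference it stood in place 39 of 14064 genes with iron and in place 67 of 14314 without. Of the 6 members with a value or bound, 1 was 2-fold lower with iron (Plaur, where 1.77% of 14943 genes were) and 2 without iron (Plaur and Procr, where 2.10% of 15259 genes were). None was 2-fold higher, against 0.984% and 1.47% of genes. The summed macrophage marker signal was 682300 in siTfe3/Tfeb and 794100 in siGFP cells with iron, and 683800 and 787200 without iron, and its part in these differences was not tested. These sums are not scaled between arrays, whose 75th percentiles were 593 and 627 with iron and 636 and 619 without.

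Procr lay at the 2-fold limit. It was at 50.9% of the siGFP level with iron (log2 -0.98, error 0.20) and at 45.6% without (log2 -1.13, error 0.21), and normexp background correction gave -0.94 without iron. F10 was at 53.1% with iron and 55.5% without, log2 differences of -0.91 and -0.85. Plau was at 64.1% with iron and 69.7% without (log2 -0.64 and -0.52), and its second probe gave log2 differences of -0.50 and -0.80. F3 was at 94.1% with iron and 108% without, within its error of 0.24 and 0.41 on the log2 scale. F7 was at 66.6% with iron (log2 -0.59, error 0.39, and -0.12 with normexp background correction). Without iron it had only a bound of at least 1.29-fold lower (log2 -0.36), which is smaller than its error of 0.6.

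**Figure D4:**
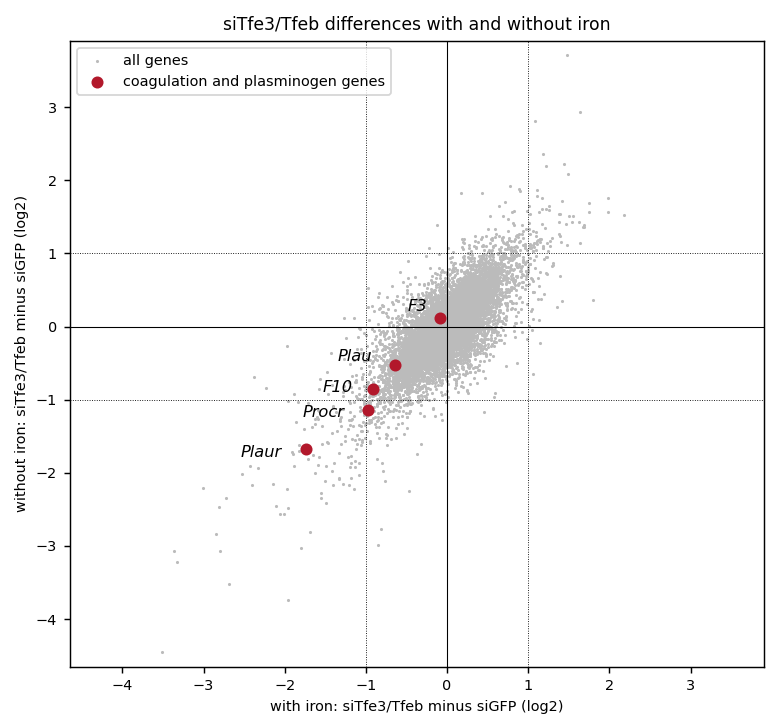
Log2 difference of siTfe3/Tfeb minus siGFP with iron (x axis) and without iron (y axis) for 13859 genes (grey) and 5 members (red); dotted lines mark 2-fold. Plaur lies lowest of the 5 at -1.74 and -1.68, and F3 lies near the origin at -0.09 and 0.12.

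The order of the 4 arrays differed between members. For Procr, Plau and F10 it ran from siGFP with iron through siTfe3/Tfeb with iron and siGFP without iron to siTfe3/Tfeb without iron, each step larger than the software's error. The step between siTfe3/Tfeb with iron and siGFP without iron was 4.75-fold for Procr, 2.63-fold for Plau and 1.26-fold for F10 (log2 0.34, error 0.20). For Plaur that step was within its error. For F3 the arrays fell into 2 levels, with iron above without, and within each level the siRNA groups were within error.

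By the root mean square difference of the 4 scaled log2 values, each centred on its mean, the members were not closest to each other. The nearest pairs were F3 with Plau (0.34) and F10 with Plau (0.41), and the farthest by this measure were Procr with F10 (1.0) and Procr with F3 (0.99). The ranks read otherwise. Among all genes ordered by likeness to Procr, Plau stood in place 15, F3 in place 53 and F10 in place 65. Plaur stood in place 7471 of those most like F3 (0.86). Among 13858 other genes, those most like Procr were Fabp4 (0.31), Il7r (0.35) and Clec4n (0.36). Most like Plaur were H2ac18 (0.19), Gstt4 (0.21) and Bdh2 (0.22). Most like Plau were Ccl3 (0.064), Uchl1 (0.084) and Rgs1 (0.12). F10 was closest to Ptafr (0.045), Dcstamp (0.092) and Cd200r1 (0.11), and F3 to Olfr1417 (0.072), Itgb3 (0.089) and Pdzk1ip1 (0.098). This likeness rests on 4 arrays.

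Of 50 other genes of clotting and plasmin formation, 23 were below background on all arrays, among them the genes of prothrombin (F2) and plasminogen (Plg). With iron in siTfe3/Tfeb cells 1 of 26 with a value or bound was 2-fold higher (1.79% of all genes) and 1 lower (0.698%). In siGFP cells 2 of 25 were higher (1.54% of all genes) and 0 lower (0.351%). The median log2 difference with iron was 0.23 in siTfe3/Tfeb cells (21 measured) and 0.26 in siGFP cells (24 measured), against -0.006 and -0.02 over all measured genes. Between siRNA groups the median was 0.09 with iron and -0.12 without iron, against -0.02 and -0.03 over all genes. With iron 2 of 25 were 2-fold lower (1.77% of all genes), and without iron 1 of 26 (2.10%). None was 2-fold higher, against 0.984% of all genes with iron and 1.47% without.

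F2rl2, a protease-activated receptor of thrombin, was at least 2.35-fold higher with iron in siTfe3/Tfeb cells and 2.87-fold higher in siGFP cells. On the siTfe3/Tfeb arrays it was 3.27-fold lower with iron and at least 2.67-fold lower without. With normexp background correction its iron differences were 0.51 and 0.88 on the log2 scale and its siRNA differences -0.96 and -0.60, all below 2-fold. Vwf, the platelet adhesion protein of endothelium, read 119 with iron and 115 without in siTfe3/Tfeb cells, and 227 with iron and 81.9 without in siGFP cells, log2 differences of 0.15 and 1.45. Averaged over its probes these were -0.33, which turns the direction in siTfe3/Tfeb cells, and 0.96 in siGFP cells, below 2-fold. With normexp background correction the siGFP value was 0.94. Fga, a fibrinogen chain gene, was well above background on 3 arrays and not in siTfe3/Tfeb cells with iron. Its signal there was at least 2.39-fold lower than without iron, and with normexp background correction the log2 difference was -0.35. Between the arrays with iron it was at least 2.59-fold lower in siTfe3/Tfeb than in siGFP cells, and -0.41 on the log2 scale with that correction. The measured log2 differences were -0.47 with iron in siGFP cells and -0.58 for siTfe3/Tfeb minus siGFP without iron.

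**Figure D5:**
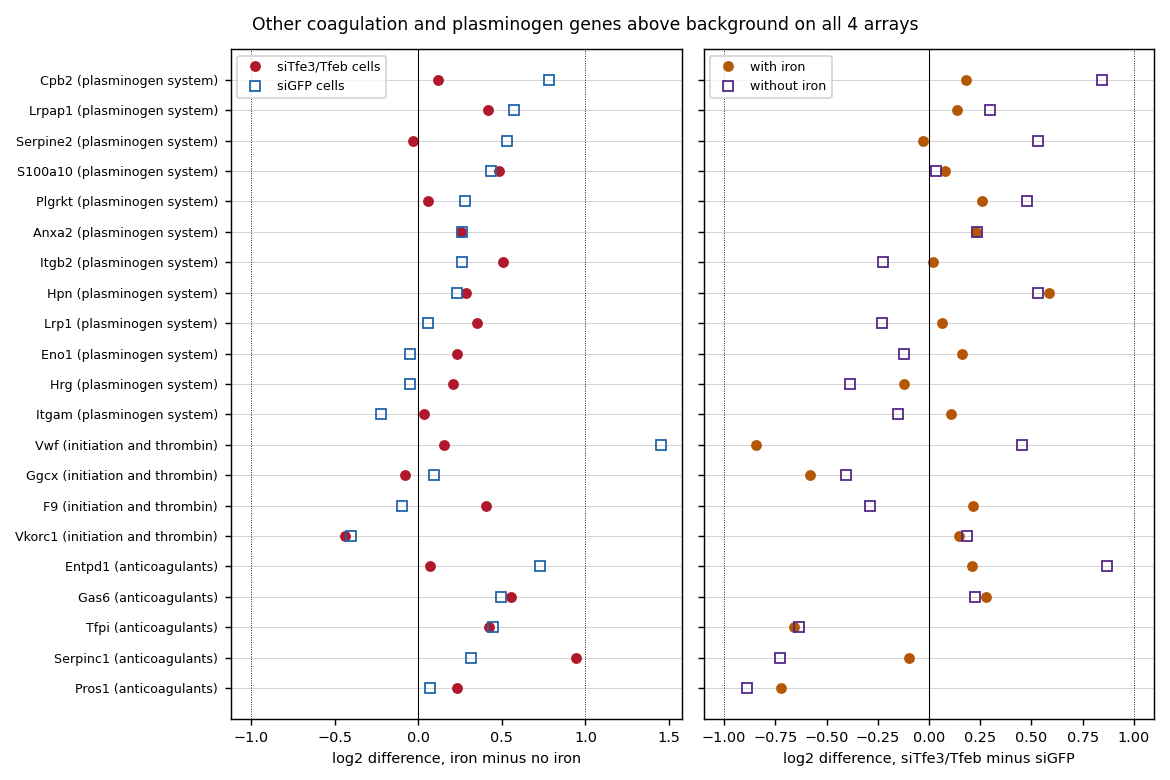
Log2 differences of 21 other clotting and plasminogen genes well above background on all 4 arrays, iron minus no iron on the left and siTfe3/Tfeb minus siGFP on the right; dotted lines mark 2-fold. With iron, Vwf in siGFP cells is the one point past 2-fold on the left, and no gene passes it on the right.

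The anticoagulant genes of the list had no 2-fold difference, and the 5 measured on all arrays did not go one way between siRNA groups. Pros1, which codes for protein S, the cofactor of activated protein C, had a log2 difference from siGFP of -0.72 on the siTfe3/Tfeb array with iron and -0.89 without. Tfpi, the inhibitor of the tissue factor pathway, was at -0.66 with iron and -0.63 without, and Serpinc1, the antithrombin gene, at -0.10 and -0.72. Entpd1, an enzyme that breaks down ATP and ADP, was at 0.21 with iron and 0.87 without, and Gas6, a relative of protein S, at 0.28 and 0.22. With iron all 5 were above 0, from 0.07 (Entpd1) to 0.94 (Serpinc1) in siTfe3/Tfeb cells and from 0.07 (Pros1) to 0.73 (Entpd1) in siGFP cells. Of all measured genes, 49.1% were above 0 with iron in siTfe3/Tfeb cells and 46.0% in siGFP cells.

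The genes that bind plasminogen also had no 2-fold difference. With iron, S100a10 was at 0.48 in siTfe3/Tfeb and 0.44 in siGFP cells, and its partner Anxa2 at 0.25 and 0.26. The plasminogen receptor gene Plgrkt was at 0.06 in siTfe3/Tfeb and 0.28 in siGFP cells. Eno1 was at 0.23 in siTfe3/Tfeb and -0.05 in siGFP cells, Hrg at 0.21 and -0.05, Itgam at 0.03 and -0.22, and Itgb2 at 0.50 and 0.26. Of all measured genes of the list's plasminogen system, 11 of 12 were above 0 with iron in siTfe3/Tfeb cells and 9 of 13 in siGFP cells. Over all measured genes 49.1% of 14120 and 46.0% of 14274 were above 0. These counts are a description of small differences and were not tested.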

How the data were processed

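Total RNA of each group was labelled with Cy3 and run on 1 array of the SurePrint G3 mouse design, per the labels. The processed intensity of each spot, its error and its flag against background come from Agilent Feature Extraction 12.0.3.1, which subtracted background and removed spatial trends within an array, per the file headers. No scaling between arrays is recorded there. A matrix of log2 values was also deposited. Set against the scanner values its between-array differences had slope 1.0, and the median over the arrays lay within 5e-07 of 0 for all 56745 rows. Its columns had medians of -0.087 (siTfe3/Tfeb), 0.0013 (siTfe3/Tfeb with iron), 0.022 (siGFP with iron) and -0.0042 (siGFP), so its log2 scale, centring and direction are known. The file headers give 1 slide and 1 scan time for the 4 arrays.

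The log2 processed signal minus the array's 75th percentile (593 to 636) was used. No spot was saturated, and 3 probes with outlier spots were left out. Probes were named through RefSeq, 33767 by accession and 10176 by symbol, and 12662 had no gene. A gene was read from its brightest probe. Where 1 of 2 arrays was not well above background, the dim side was set to the higher of its own signal and the lowest signal well above background, which gives a bound. Genes were counted from a 2-fold difference. The steps were tested on simulated data. The number of arrays limits the precision. Python 3.11.15, pandas 2.3.3, R 4.3.3 and limma 3.58.1 (normexp, quantile) were used.

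Members and lists were chosen with earlier results of these data known. Named genes are the members, wider-list genes with a 2-fold difference in any comparison, and the 3 genes most like each member detected on all arrays. Further genes of the wider list were named after their values were seen, and 1 gene of that list is not reported here and is left out of its counts. The alternatives were other scalings (quantile, median), normexp background correction (offset 50), the deposited matrix, other choices of probe, and no filter on background.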

Additional observations from a re-analysis of the deposited data

Results flagged for a closer look

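F3 and Vwf are listed because their siTfe3/Tfeb minus siGFP differences had opposite signs with and without iron. For F3 the log2 difference was -0.09 with iron and 0.12 without, both within the software's error, and each changed sign under 1 of 8 alternatives. For Vwf it was -0.84 with iron and 0.45 without. The difference between these values was not tested.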

How the results depend on the processing

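Over 29 member results and 8 alternatives, 216 of 230 values stayed within the software's error of the reported one, 14 moved further, and no 2-fold difference changed sign. The differences of iron responses, all small, changed sign in 1 or 2 of the 8 alternatives for each of the 5 members. With normexp background correction, alone or with quantile normalization, F3 was no longer 2-fold higher with iron, leaving 4 members higher in each siRNA group. With either, 1 member in place of 2 was 2-fold lower on the siTfe3/Tfeb array without iron, since Procr was at -0.94 and -0.92. With no filter on background, 6 members in place of 5 were 2-fold higher with iron in siGFP cells. On the siTfe3/Tfeb arrays 1 member was then higher and 3 lower without iron, and 3 were lower with iron. The added members were Thbd and Serpinb2, below background on every array. Counts of all genes at least 2-fold different followed the background step. The normexp offset of 50 by itself shrinks dim differences, so falls below 2-fold with it cannot be separated from the offset. With iron in siTfe3/Tfeb cells 269 were higher and 105 lower, against 151 and 17 with normexp background correction, 148 and 19 with quantile normalization added, and 582 and 1284 with no filter, and the series matrix, which gave no bounds, had 58 lower. With iron in siGFP cells 233 and 53 became 125 and 20, 127 and 20, and 900 and 674. On the siTfe3/Tfeb arrays 147 higher and 264 lower with iron became 50 and 99, 51 and 95, and 453 and 1546, and 224 and 321 without iron became 79 and 155, 83 and 142, and 927 and 1061. With normexp background correction 0 genes of the wider list differed 2-fold in any comparison, in place of 1 higher and 1 lower with iron in siTfe3/Tfeb cells, 2 higher with iron in siGFP cells, and on the siTfe3/Tfeb arrays 2 lower with iron and 1 lower without. No paired analysis was possible because the groups share no more than 1 replicate number and no result comes from a test. Signal near background limits F3 and F7.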
